A study of Mus musculus with 19 samples.

Results

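The 47 genes described here encode the enzymes, carriers and transcription factors of fatty acid, glycerolipid and surfactant phospholipid synthesis. They were chosen as a list of gene symbols, with earlier results of these data known. All 47 were found by Entrez ID among the 36528 gene IDs of the deposited tables. RNA was sequenced from mice labelled Etv5KO (SpcCreERT2;RosatdTomato;Etv5ko/loxp) and from control mice (SpcCreERT2;RosatdTomato), as alveolar type II (AT2) cells and as lung tissue. The groups hold 5 Etv5KO and 4 control libraries of AT2 cells, and 5 Etv5KO and 5 control libraries of lung. Mice of every group carried a tamoxifen-dependent Cre driven by the promoter of the surfactant protein C gene and a tdTomato reporter of recombination. All received tamoxifen at 100 mg/kg body weight, injected for 5 days and followed by 5 days without. The Etv5 alleles, written as a ko and a loxP allele, were the labelled difference between the genotypes. AT2 cells were collected as EpCAM+, tdTomato+, CD45- and CD31- cells, so a sorted library holds cells in which the reporter had recombined, while a lung library holds every cell type. The design text gives 5 mice per genotype, while 4 AT2 libraries of control mice are used here. The labels give no age and tie no AT2 library to a lung library, and libraries are numbered in accession order within a group. The comparison asks how RNA levels in AT2 cells and in lung differ between these genotypes of Etv5, a transcription factor of the ETS family. The labels do not say in which cells the ko allele is present. No group is labelled with only the ko or only the loxP allele, so their parts cannot be told apart.

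AT2 cells line the alveoli of the lung and make surfactant, a mixture of lipids and proteins that lowers surface tension. Its main lipid is phosphatidylcholine with saturated acyl chains, above all dipalmitoyl phosphatidylcholine. Acetyl-CoA is carboxylated by acetyl-CoA carboxylase and built into palmitate by fatty acid synthase. Acyl-CoA synthetases activate fatty acids, glycerol-3-phosphate and lysophosphatidate acyltransferases attach them to the glycerol backbone, and lipins convert phosphatidate to diacylglycerol. Diacylglycerol enters triglyceride through the DGAT enzymes or receives a choline head group from CDP-choline, whose synthesis is controlled by the enzyme encoded by Pcyt1a. Lysophosphatidylcholine acyltransferase 1, encoded by Lpcat1, then exchanges acyl chains to give the dipalmitoyl form.

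Total counts ran from 14971793 to 28671262 per library. Levels per library are given as CPM, counts relative to the library's total, scaled by TMM within the libraries of a tissue. Genes are compared with each other only on the authors' RPKM, a level per gene length. Fold changes, on the log2 scale, and p-values come from edgeR's quasi-likelihood F test, adjusted by the Benjamini-Hochberg method over all genes tested in a comparison, with a threshold of 0.05. The words rose, fell and passed are kept for genes whose adjusted p was under that threshold. Etv5 itself had 637, 656, 656, 622 and 546 CPM in Etv5KO AT2 cells, against 628, 583, 558 and 555 CPM in control AT2 cells (log2 fold change 0.10, SE 0.08, adjusted p = 0.505). In lung it had 135, 127, 107, 135 and 134 CPM in Etv5KO, against 104, 118, 123, 126 and 116 CPM in control (log2 fold change 0.12, SE 0.08, adjusted p = 0.978). Reads counted over the whole gene are no check of a deletion that removes part of it, so every direction below refers to the libraries labelled Etv5KO. The sorted cells carried their defining markers: all 10 AT2 marker genes on the list, among them Sftpc, Abca3 and Lamp3, exceeded their control lung levels in control AT2 cells. Libraries AT2_control 2 and Lung_control 1 stood apart from the rest of their groups. The first scored −18.9 on the second principal component of the AT2 libraries, where the other controls scored −6.06 to 8.07. The second scored −15.4 on the first component of the lung libraries, where the other lung controls scored 7.10 to 11.97. Counts of genes that passed are given below with and without these libraries.

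The 47 genes together took 3.04 to 3.73% of all counts in Etv5KO AT2 libraries, against 2.98 to 3.74% in control AT2 libraries. In lung they took 0.827 to 1.07% in Etv5KO, against 0.764 to 0.983% in control. The summed share therefore overlapped between the genotypes in both tissues. Scd1 had the most reads of the 47 genes in every library (293377 to 580419 in control AT2 libraries), so the sum leans on this gene.

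Most of the 47 genes were higher in sorted AT2 cells than in whole lung. Between control AT2 cells and control lung, all 47 could be tested, 34 were higher in AT2 cells and 8 were lower, where 74.5% of all genes tested passed in either direction, 35.6% as higher and 38.9% as lower. The median log2 fold change of the 47 was 1.13, against −0.01 over all 17118 genes tested. Every tested member of the desaturases (5 of 5) and both lipogenic transcription factors were higher in AT2 cells, as were 5 of 7 genes of fatty acid synthesis. The largest difference was that of Mfsd2a, the carrier that brings lysophosphatidylcholine into cells, at a log2 fold change of 4.54 (SE 0.20). Scd1 followed at 3.13 (SE 0.22), Fasn at 2.79 (SE 0.14), Pla2g1b at 2.78 (SE 0.10) and Lpcat1 at 2.69 (SE 0.10), and the adjusted p of these 5 genes was at most 8.46e-08. Without AT2_control 2, 41 members passed, and 41 without Lung_control 1. Scaled by library size alone, 28 members were higher and 10 lower, and the median of all genes moved to −0.42.

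The members lower in AT2 cells were Pcyt1b (−4.39), Agpat4 (−3.95), Lpcat2 (−3.83), Dgat2 (−1.497), Cds2 (−1.02), Acsl1 (−0.86), Lpcat4 (−0.73) and Agpat5 (−0.26), with log2 fold changes in parentheses. Pcyt1b, the paralog of Pcyt1a, had counts of 1, 3, 3, 2 and 1 reads in Etv5KO AT2 cells and of 0, 8, 1 and 0 reads in control AT2 cells, too few for a test of genotype there. Acacb, Acss2, Lpin1, Chkb and Pemt did not pass between the tissues, with log2 fold changes from 0.03 to 0.58.

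Per gene length, Scd1 stood far above the other members. The authors' RPKM averaged 3785 ± 709.9 for Scd1 in Etv5KO AT2 cells and 4215 ± 970.3 in control AT2 cells (SD, n = 5 and 4). In lung it averaged 517 in Etv5KO and 496 in control. Lpcat1 came next, at a mean RPKM of 713 ± 86.6 in Etv5KO and 968 ± 81.6 in control AT2 cells. In the order of control AT2 levels, Fasn and Scd2 (370.3 ± 13.1 and 355 ± 58.6 RPKM) lie closer than the SD of Scd2, and Acly and Acsl5 (257 ± 34.5 and 249 ± 25.3 RPKM) closer than either SD. At the low end stood Dgat2 (1.46 RPKM), Agpat4 (1.35 RPKM), Lpcat2 (0.362 RPKM) and Pcyt1b (0.0186 RPKM).

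**Figure D1:**
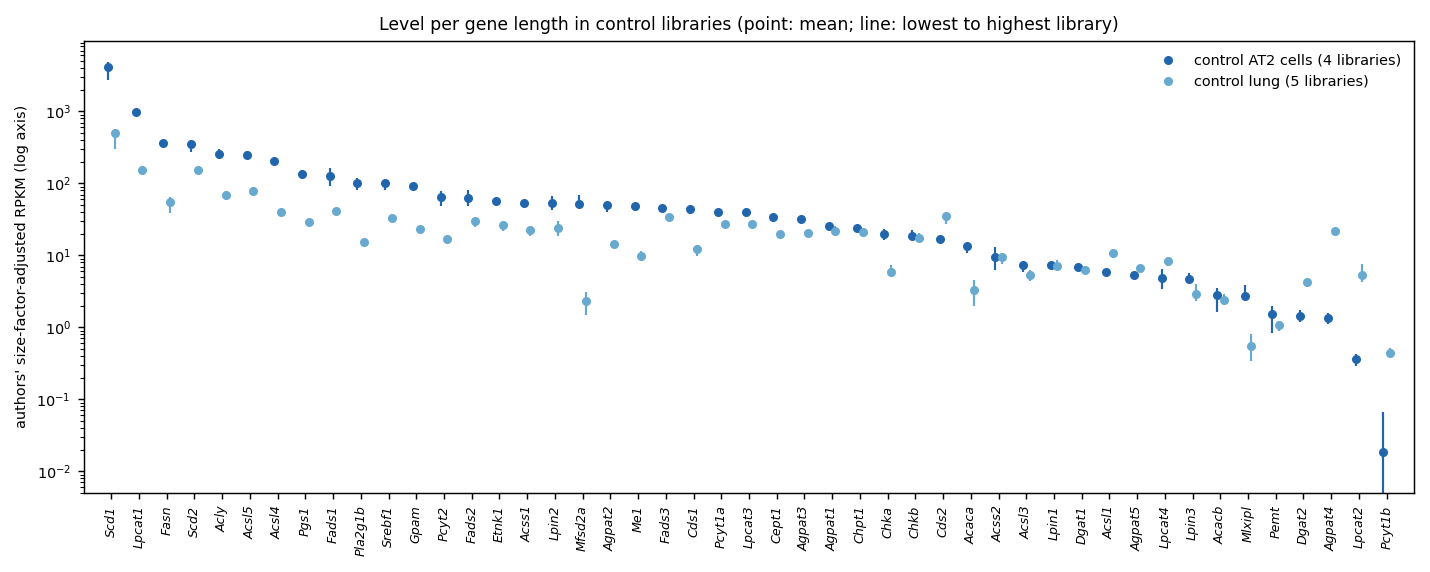
Level of each of the 47 genes per gene length in control libraries, as the authors' size-factor-adjusted RPKM on a log axis, with genes ordered from left to right by their mean in control AT2 cells. Points are means and lines run from the lowest to the highest library, for 4 control AT2 and 5 control lung libraries. Scd1 is highest in both tissues, and the AT2 point falls below the lung point for genes such as Agpat4, Dgat2, Cds2 and Acsl1.

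In AT2 cells the genotypes differed for members of nearly every step, in both directions. Of the 47 genes, 46 had counts high enough to be tested in AT2 cells, and 7 of them rose and 9 fell in the libraries labelled Etv5KO. That is 34.8% of those tested, where 9.87% of all genes tested passed in either direction (5.03% as higher and 4.84% as lower). Because the genes were chosen with earlier results of these data known, the excess over all genes is a description only. The median log2 fold change of the 46 was −0.03, against −0.01 over all 14939 genes. Fads3, Gpam, Agpat4, Mfsd2a, Cds2, Acsl1 and Acsl5 rose, and Acacb, Acss1, Acss2, Me1, Srebf1, Dgat2, Etnk1, Lpcat1 and Pla2g1b fell. In 16 of the 46 the libraries of the genotypes did not overlap (7 higher and 9 lower in Etv5KO), where this held for 12.5% of all genes tested, 6.12% as higher and 6.37% as lower. The number past the adjusted p threshold rested in part on single control libraries. Without AT2_control 1 or without AT2_control 3 this was 8 each time, 5 higher (Fads3, Gpam, Agpat4, Cds2 and Acsl5) and 3 lower (Acacb, Acss2 and Pla2g1b). Without AT2_control 2, the library that stood apart, it was 15. Scaling by library size alone gave 15 members past the threshold. Over all genes it gave 894 higher of 1376 past the threshold, where TMM scaling gave 751 higher of 1474.

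**Figure D2:**
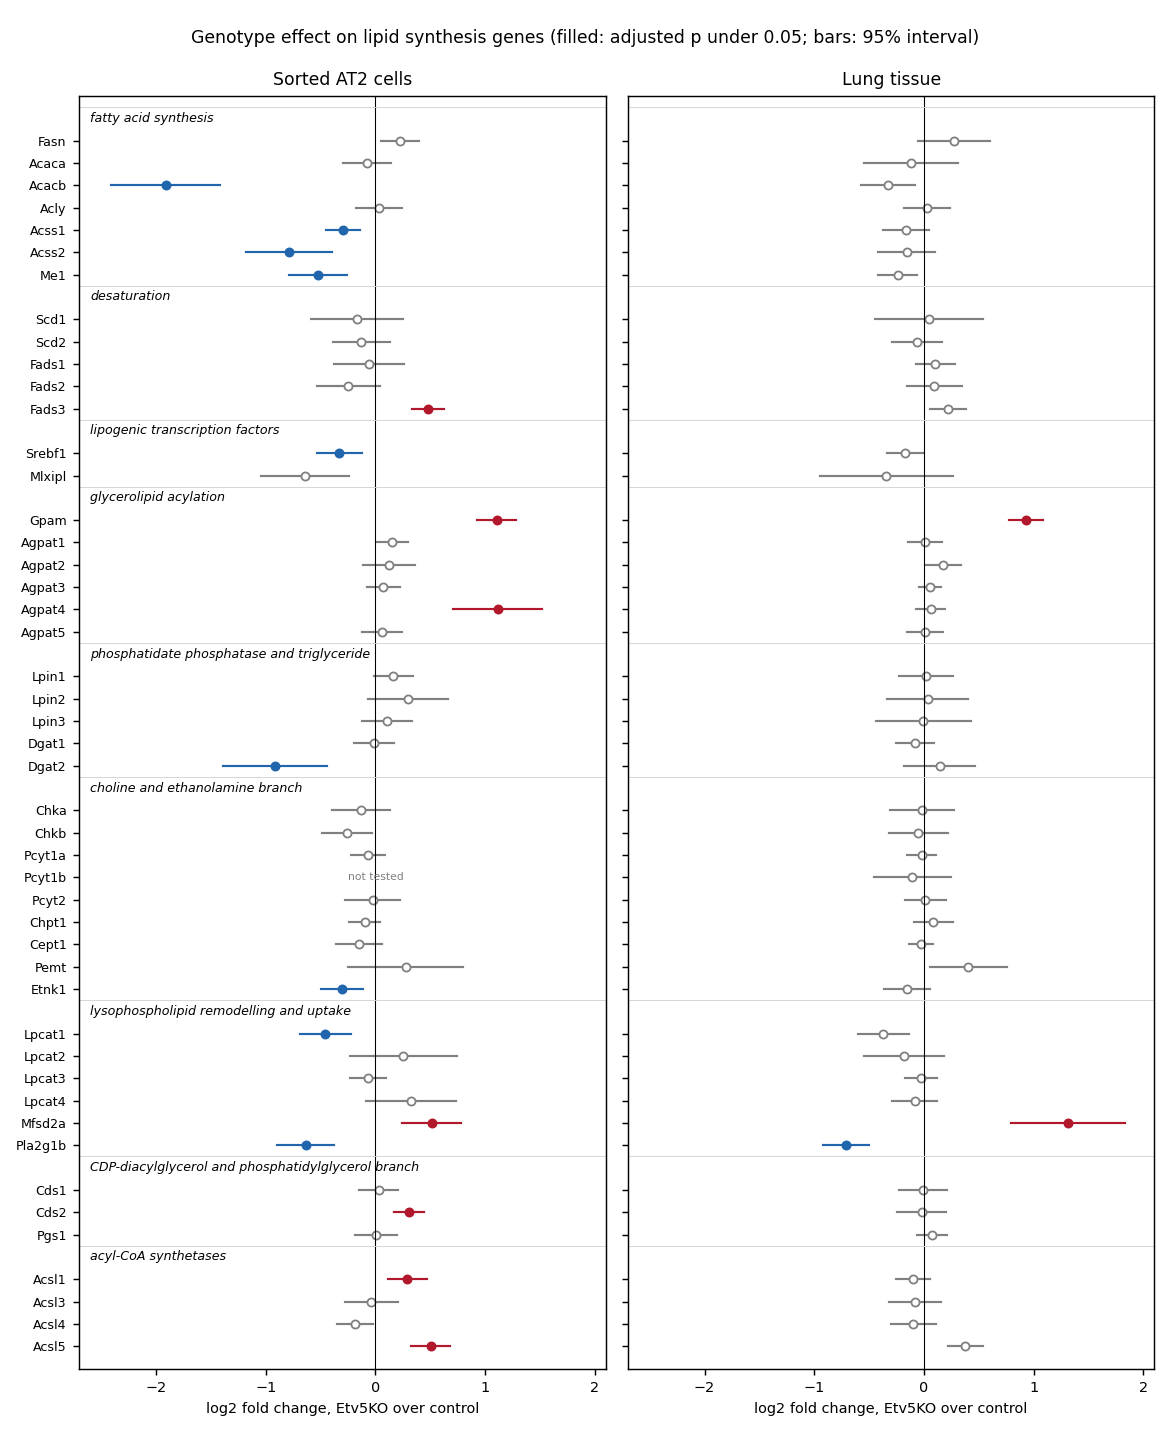
Log2 fold change of each gene in Etv5KO over control libraries (horizontal axis), in sorted AT2 cells on the left and in lung on the right, with genes grouped by step. Points are edgeR estimates with 95% intervals, and filled points passed an adjusted p of 0.05 (red higher, blue lower in Etv5KO). In AT2 cells 7 genes are filled red and 9 blue, and in lung Gpam, Mfsd2a and Pla2g1b are filled.

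Of the 7 genes listed under fatty acid synthesis, 4 fell in Etv5KO AT2 cells and none rose, where 4.84% of all genes tested fell. The list also holds genes of acetyl-CoA, malonyl-CoA and NADPH supply, and Acly, Acaca and Fasn were not among the 4. Acacb, the acetyl-CoA carboxylase of the outer mitochondrial membrane whose malonyl-CoA restrains fatty acid entry into mitochondria, had 8.70, 5.69, 4.84, 6.45 and 8.42 CPM in Etv5KO AT2 cells, against 31.99, 26.9, 28.4 and 14.8 CPM in control AT2 cells. All 5 Etv5KO libraries lay below the lowest control, AT2_control 4, and Acacb fell by 1.91 on the log2 scale (SE 0.23, adjusted p = 0.000303). Acss2, the cytosolic and nuclear acetyl-CoA synthetase, had 16.7, 13.0, 16.8, 18.6 and 15.9 CPM in Etv5KO and 39.0, 18.7, 29.2 and 25.2 CPM in control AT2 cells. The highest Etv5KO library lay just under the lowest control (log2 fold change −0.79, SE 0.18, adjusted p = 0.0164). Acss1, its mitochondrial counterpart, had 164, 144, 139, 149 and 136 CPM in Etv5KO and 182, 165, 185 and 184 CPM in control AT2 cells, again with no overlap (log2 fold change −0.29, SE 0.07, adjusted p = 0.0216). Leaving out Etv5KO 3 or 5 or control 1, 3 or 4 lost this call (adjusted p up to 0.0734). Me1, malic enzyme, a source of the NADPH that fatty acid synthesis uses, had 145, 102, 95.4, 118 and 106 CPM in Etv5KO and 176, 159.6, 176 and 139 CPM in control AT2 cells. The highest Etv5KO library lay above the lowest control (log2 fold change −0.52, SE 0.12, adjusted p = 0.0169), and without AT2_control 1 or AT2_control 3 the call was lost (adjusted p up to 0.0559).

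Fasn, fatty acid synthase, had 3943, 4054, 4118, 4051 and 3741 CPM in Etv5KO AT2 cells, against 3388, 3378, 3289 and 3597 CPM in control AT2 cells. The groups did not overlap, and Fasn was higher in Etv5KO by a log2 fold change of 0.22 (interval 0.05 to 0.40), but its adjusted p was 0.116. DESeq2 and scaling by library size alone each took it past the threshold. Acaca, the cytosolic acetyl-CoA carboxylase that feeds Fasn, gave −0.08 (interval −0.29 to 0.14) and Acly, ATP citrate lyase, 0.03 (interval −0.18 to 0.24). Their adjusted p was 0.732 for Acaca and 0.9 for Acly. Acaca, Fasn and Acly thus did not pass. Acacb, Acss1, Acss2 and Me1 fell, and of these 4 the calls of Acss1 and Me1 were lost without single libraries.

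Among the 5 desaturases, Fads3 rose in Etv5KO AT2 cells. Fads3, a member of the fatty acid desaturase cluster that acts on sphingoid bases, had 235, 245, 254, 229 and 244 CPM in Etv5KO and 187, 171, 176 and 160.3 CPM in control AT2 cells. The groups were far apart for their spread (log2 fold change 0.48, SE 0.06, adjusted p = 0.000712). Scd1, which places the first double bond in stearate and palmitate, had 19095, 13911, 13117, 20274 and 17592 CPM in Etv5KO and 21315, 12513, 21606 and 20145 CPM in control AT2 cells. The 3 lowest libraries were Etv5KO 2, Etv5KO 3 and control 2, and the test gave −0.17 (interval −0.59 to 0.25, adjusted p = 0.679). Scd2, Fads1 and Fads2 had log2 fold changes of −0.13, −0.06 and −0.25, with adjusted p of at least 0.302.

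Of the transcription factors, Srebf1, whose product SREBP-1 switches on fatty acid synthesis genes, had 323, 362, 344, 368 and 339.6 CPM in Etv5KO AT2 cells, against 466, 355, 434 and 493 CPM in control AT2 cells. AT2_control 2 lay within the Etv5KO range and the other 3 controls above it. Srebf1 fell by 0.33 on the log2 scale (SE 0.09, adjusted p = 0.0453), close to the threshold, and the call was lost when any library other than AT2_control 2 was left out (adjusted p up to 0.135). Mlxipl, which encodes ChREBP, the carbohydrate-responsive factor of the same genes, had 5.32, 7.51, 8.16, 5.80 and 7.05 CPM in Etv5KO and 8.88, 15.1, 8.90 and 9.57 CPM in control AT2 cells. Its groups did not overlap, and it gave −0.64 (SE 0.18) at an adjusted p of 0.0501.

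The 2 largest rises among the members, Gpam and Agpat4, were both in glycerolipid acylation. Gpam, the mitochondrial glycerol-3-phosphate acyltransferase that attaches the first acyl chain, had 1373, 1450.2, 1267, 1324 and 1235 CPM in Etv5KO AT2 cells, against 631, 587, 588 and 671 CPM in control AT2 cells. All 5 Etv5KO libraries lay far above the highest control, and the fitted fold was 2.15 (log2 fold change 1.10, SE 0.08, adjusted p = 1.26e-05). Agpat4, a lysophosphatidate acyltransferase best known from brain, had 4.98, 6.78, 7.79, 4.84 and 7.002 CPM in Etv5KO and 2.52, 3.41, 3.24 and 2.43 CPM in control AT2 cells. It too rose with no overlap (log2 fold change 1.11, SE 0.18, adjusted p = 0.00256), from a level far below that of lung, where it had 57.6 to 64.9 CPM in Etv5KO and 54.3 to 62.0 CPM in control. Agpat1, Agpat2, Agpat3 and Agpat5, which catalyse the same second acylation, had log2 fold changes from 0.06 to 0.15 and did not pass (adjusted p at least 0.205). At the next step the lipins Lpin1, Lpin2 and Lpin3 gave 0.16, 0.29 and 0.11 and did not pass (adjusted p at least 0.277).

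Of the 2 enzymes that complete triglyceride, Dgat2 fell and Dgat1 did not pass. Dgat2 had 1.72, 2.37, 1.18, 1.26 and 1.56 CPM in Etv5KO AT2 cells, against 3.65, 2.82, 3.20 and 2.48 CPM in control AT2 cells (log2 fold change −0.92, SE 0.22, adjusted p = 0.0198). The groups lay apart by a small gap at this low level, and the call was lost without AT2_control 1 or AT2_control 3 (adjusted p up to 0.0634). Dgat1 had 16.9 to 20.4 CPM in Etv5KO and 17.7 to 20.4 CPM in control AT2 cells, with a log2 fold change of −0.01 (interval −0.19 to 0.17).

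The choline branch, the main route to surfactant phosphatidylcholine, showed no member past the threshold in AT2 cells. Pcyt1a, the rate-controlling enzyme of CDP-choline synthesis, had 182, 197, 172, 201 and 182 CPM in Etv5KO and 209, 186, 184 and 204 CPM in control AT2 cells. The groups overlapped (log2 fold change −0.07, SE 0.07, interval −0.22 to 0.08, adjusted p = 0.637). Chpt1, the cholinephosphotransferase that joins CDP-choline to diacylglycerol, had 89.0, 76.5, 87.2, 90.8 and 83.5 CPM in Etv5KO and 93.2, 86.9, 93.2 and 92.5 CPM in control AT2 cells. Of the 5 Etv5KO libraries, 3 lay within the control range and 2 below it (log2 fold change −0.10, SE 0.06, adjusted p = 0.414). The choline kinases Chka and Chkb gave −0.13 and −0.26, Cept1, which serves both head groups, −0.15, and Pemt, which methylates phosphatidylethanolamine, 0.28. On the ethanolamine side, Etnk1, ethanolamine kinase, had 349, 275, 273, 333 and 302 CPM in Etv5KO and 391, 349.6, 380.1 and 392 CPM in control AT2 cells. All 5 Etv5KO libraries lay below the lowest control (log2 fold change −0.30, SE 0.09, adjusted p = 0.0491), but the call was lost when any library other than Etv5KO 1 or control 2 was left out (adjusted p up to 0.122). Pcyt2, the next ethanolamine enzyme, gave −0.03 (interval −0.28 to 0.23).

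Chkb and Cept1 overlap other gene models (Gm44502 for Chkb, Dram2 and Dennd2d for Cept1), and Srebf1 overlaps Rai1. Whether the counting used strand is not given in the sources used here, so reads of such pairs may have been shared.

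Remodelling and uptake of lysophospholipids moved both ways. Lpcat1, the acyltransferase that makes dipalmitoyl phosphatidylcholine in AT2 cells, had 2966, 2372, 2184, 2709 and 2450.0 CPM in Etv5KO AT2 cells, against 3788, 3342, 3623 and 3173 CPM in control AT2 cells. Every Etv5KO library lay below every control, and Lpcat1 fell by 0.46 on the log2 scale (SE 0.11, adjusted p = 0.0182). The call was lost without AT2_control 1 or AT2_control 3 (adjusted p up to 0.0642). Pla2g1b, a secreted phospholipase A2 that releases lysophospholipids, had 48.7, 43.2, 44.3, 59.0 and 41.8 CPM in Etv5KO and 84.4, 59.6, 74.2 and 76.2 CPM in control AT2 cells. The highest Etv5KO library lay just under the lowest control, AT2_control 2 (log2 fold change −0.64, SE 0.12, adjusted p = 0.00536). Mfsd2a had 136, 152, 158, 141 and 159.6 CPM in Etv5KO and 98.2, 90.8, 91.3 and 139 CPM in control AT2 cells. It rose (log2 fold change 0.51, SE 0.12, adjusted p = 0.0211), although AT2_control 4 lay within the Etv5KO range. Without Etv5KO 5, control 1 or control 3 the adjusted p reached up to 0.0727, and in a fit of all 19 libraries it was 0.0951. Lpcat2, Lpcat3 and Lpcat4, which reacylate lysophospholipids with other preferences, gave 0.26, −0.07 and 0.32 and did not pass (adjusted p at least 0.352).

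In bulk libraries, fewer cells of a type and less RNA per cell cannot be told apart. AT2 markers are given beside the falls of Lpcat1 and Pla2g1b. Of the 10, 3 (Sftpa1, Napsa and Cxcl15) fell in Etv5KO AT2 cells and none rose, where 4.84% of all genes tested fell and 5.03% rose. The summed RPKM of the 10 was 120974 to 163934 in Etv5KO AT2 libraries, against 127117 to 208227 in control AT2 libraries. Sftpc and Lyz2, the largest parts of this sum, did not pass and overlapped between the genotypes. The part of these markers in the falls was not tested.

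Among the genes listed for CDP-diacylglycerol and for phosphatidylglycerol, the second phospholipid of surfactant, Cds2 alone passed, and it rose. Cds2, a CDP-diacylglycerol synthase, had 189, 162, 179, 179 and 165 CPM in Etv5KO AT2 cells, against 142, 137, 146 and 141 CPM in control AT2 cells. The groups did not overlap (log2 fold change 0.31, SE 0.06, adjusted p = 0.00972). Cds1, the other form, gave 0.03 (interval −0.15 to 0.21), and Pgs1, the phosphatidylglycerophosphate synthase, 0.01 (interval −0.19 to 0.20).

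Of the 4 long-chain acyl-CoA synthetases, 2 rose in Etv5KO AT2 cells. Acsl5 had 1122, 1083, 1068, 1073 and 1161 CPM in Etv5KO and 798, 699.7, 873 and 736 CPM in control AT2 cells, with no overlap (log2 fold change 0.50, SE 0.08, adjusted p = 0.00223). Acsl1 had 34.4, 33.3, 35.8, 33.4 and 27.6 CPM in Etv5KO and 27.3, 25.8, 27.6 and 27.1 CPM in control AT2 cells. Its lowest Etv5KO value barely cleared the highest control (log2 fold change 0.29, SE 0.08, adjusted p = 0.045), and leaving out any library other than Etv5KO 5 lost the call (adjusted p up to 0.107). Acsl4, the form that prefers arachidonate, had 801 to 937 CPM in Etv5KO and 971 to 1048 CPM in control AT2 cells. Its groups did not overlap, and it gave −0.18 at an adjusted p of 0.165. Acsl3 gave −0.04 (interval −0.28 to 0.20).

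**Figure D3:**
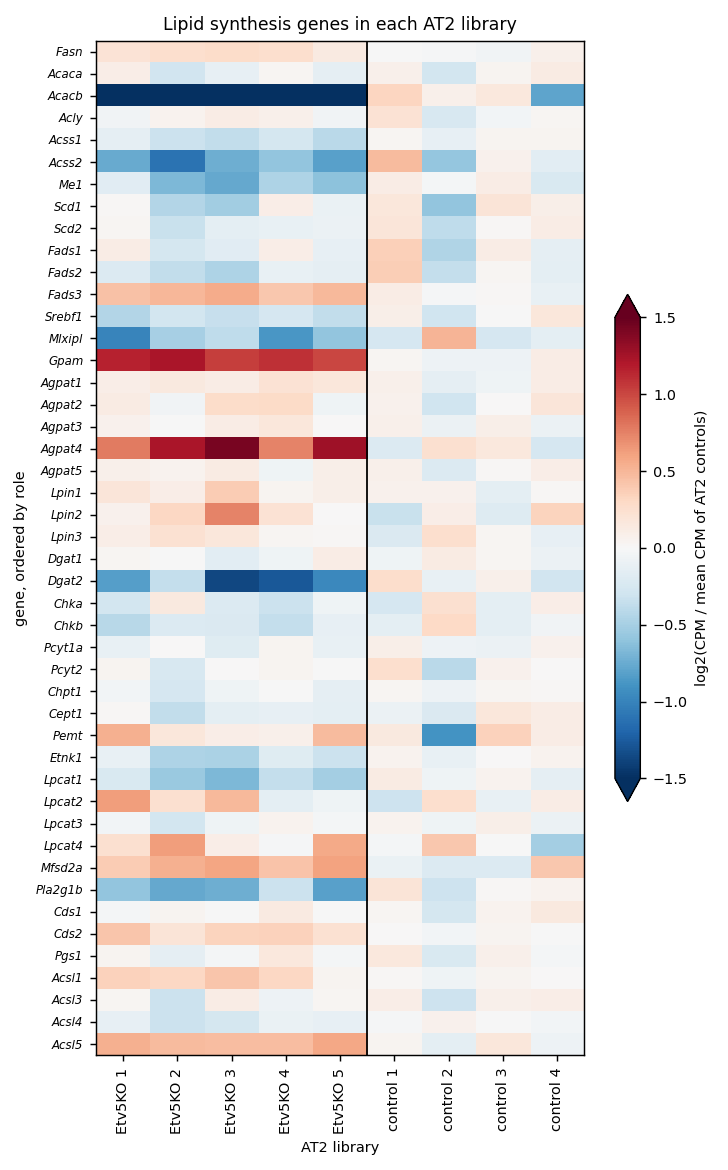
Each of the 46 genes tested in AT2 cells (rows, ordered by step) in each AT2 library (columns, Etv5KO left of control), as log2 of its CPM over the mean CPM of the 4 AT2 controls, with red above and blue below that mean. Gpam, Agpat4, Acsl5 and Fads3 are red and Acacb blue in all 5 Etv5KO libraries, and control 2 is bluer than the other controls for Scd1, Fads1 and Acss2.

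Agpat4, Cds2 and Acsl1, which rose, are lower in AT2 cells than in lung, so levels of other cell types are given beside them. The 10 AT1 markers summed to 2005 to 2219 RPKM in Etv5KO AT2 libraries, against 1453 to 1848 RPKM in control AT2 libraries, and 5 of them rose and 1 fell, where 5.03% of all genes tested rose and 4.84% fell. The 8 airway secretory markers summed to 1889.9 to 3121 RPKM in Etv5KO, against 1198 to 2344 RPKM in control (4 rose), and the 7 ciliated cell markers to 78.4 to 98.4 RPKM, against 51.5 to 63.6 RPKM (2 rose of 5 tested). Endothelial markers summed to 42.1 to 59.5 RPKM in Etv5KO and 35.2 to 53.5 RPKM in control, and fibroblast and smooth muscle markers to 14.4 to 24.7 RPKM and 11.8 to 17.5 RPKM, with no gene of either list past the threshold. Macrophage markers summed to 31.1 to 40.8 RPKM in Etv5KO and 23.2 to 38.2 RPKM in control, with 1 of 10 higher. The AT1 sum was mostly Ager (1239 to 1477 RPKM in Etv5KO) and the airway sum mostly Hp (1184 to 1868 RPKM) and Scgb1a1. Control sorts exceeded control lung for Ager and Hp. Of AT1, airway and ciliated markers below lung in control sorts, Clic5, Emp2, Cav1, Cyp2f2 and Tppp3 were higher in Etv5KO without overlap. Hopx, Pdpn, Rtkn2, Akap5, Scgb1a1, Scgb3a2, Foxj1, Rsph1 and Cdhr3 overlapped, although Akap5 rose. Such sums therefore do not count cells. The part of the listed cell types in the rises of Agpat4, Cds2 and Acsl1 was not tested. Markers of adipocytes, another cell type rich in these enzymes, were near 0: the 10 genes summed to 0.581 to 1.55 RPKM in Etv5KO and 0.731 to 1.47 RPKM in control AT2 libraries, and Lep was at 0 in every library.

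In lung, 3 of the 47 genes passed, and the same 3 had passed in AT2 cells with the same direction. Gpam and Mfsd2a rose and Pla2g1b fell, where 0.415% of all genes tested passed in either direction (0.205% as higher and 0.211% as lower). Without Lung_control 1, the library that stood apart, 2 passed. The median log2 fold change of the 47 was −0.01, as it was over all 17098 genes. Gpam had 384, 384, 365, 396 and 406 CPM in Etv5KO lung, against 179, 203, 223, 191 and 220.1 CPM in control lung. The groups were wide apart (log2 fold change 0.93, SE 0.07, adjusted p = 0.000145), and the call held under all 17 alternative settings tried. Mfsd2a had 12.1, 20.8, 11.1, 18.4 and 10.2 CPM in Etv5KO and 3.82, 4.75, 7.73, 6.57 and 6.04 CPM in control lung. All 5 Etv5KO libraries lay above all controls, Etv5KO 2 and Etv5KO 4 well above the other 3 (log2 fold change 1.32, SE 0.24, adjusted p = 0.035). Leaving out Etv5KO 1, 2 or 4 or control 1, 2, 4 or 5 lost the call (adjusted p up to 0.101). Pla2g1b had 7.25, 7.67, 8.53, 9.62 and 9.47 CPM in Etv5KO and 13.8, 13.4, 14.0, 15.3 and 13.2 CPM in control lung, with no overlap (log2 fold change −0.71, SE 0.10, adjusted p = 0.00543), and this call also held under all 17 settings.

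Acsl5 and Lpcat1 also had lung libraries that did not overlap, 5 of the 47 genes in all, where this held for 1.55% of all genes tested. Acsl5 had 372, 430.3, 365, 419.5 and 399 CPM in Etv5KO lung, against 290.3, 296, 298, 347 and 299 CPM in control lung. It was higher in Etv5KO at an adjusted p of 0.053 (log2 fold change 0.38, SE 0.07), just short of the threshold, and passed under 7 of 17 alternative settings. Lpcat1 had 457, 542, 464, 642 and 605 CPM in Etv5KO and 653, 667, 741, 793 and 646 CPM in control lung (log2 fold change −0.37, SE 0.11, adjusted p = 0.342). The other members gave log2 fold changes from −0.34 for Mlxipl to 0.40 for Pemt and did not pass. Among them, Fasn had 791, 730.0, 592, 870.1 and 904 CPM in Etv5KO and 458, 771, 755, 612 and 616 CPM in control lung (adjusted p = 0.978). Scd1 had 1865, 3495, 2081, 3826 and 3278 CPM in Etv5KO and 1727, 3019, 3083, 3239.6 and 2996 CPM in control lung (adjusted p = 0.992). Srebf1 had 164, 156, 153, 173 and 154 CPM in Etv5KO and 159, 174, 207, 189 and 173 CPM in control lung (adjusted p = 0.828). All 3 overlapped between the genotypes. Pcyt1a had 158 to 174 CPM in Etv5KO and 151 to 181 CPM in control lung, Chpt1 85.4 to 120.1 and 93.6 to 105 CPM, and Pcyt1b, nearly absent from AT2 cells, 2.09 to 3.55 and 2.48 to 3.28 CPM. AT2 markers summed to 17257 to 24036 RPKM in Etv5KO lung, against 19128 to 25178 RPKM in control lung. Of the 10, 1 fell, Sftpa1, where 0.211% of all genes tested fell. Their part in the lung results was not tested.

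**Figure D4:**
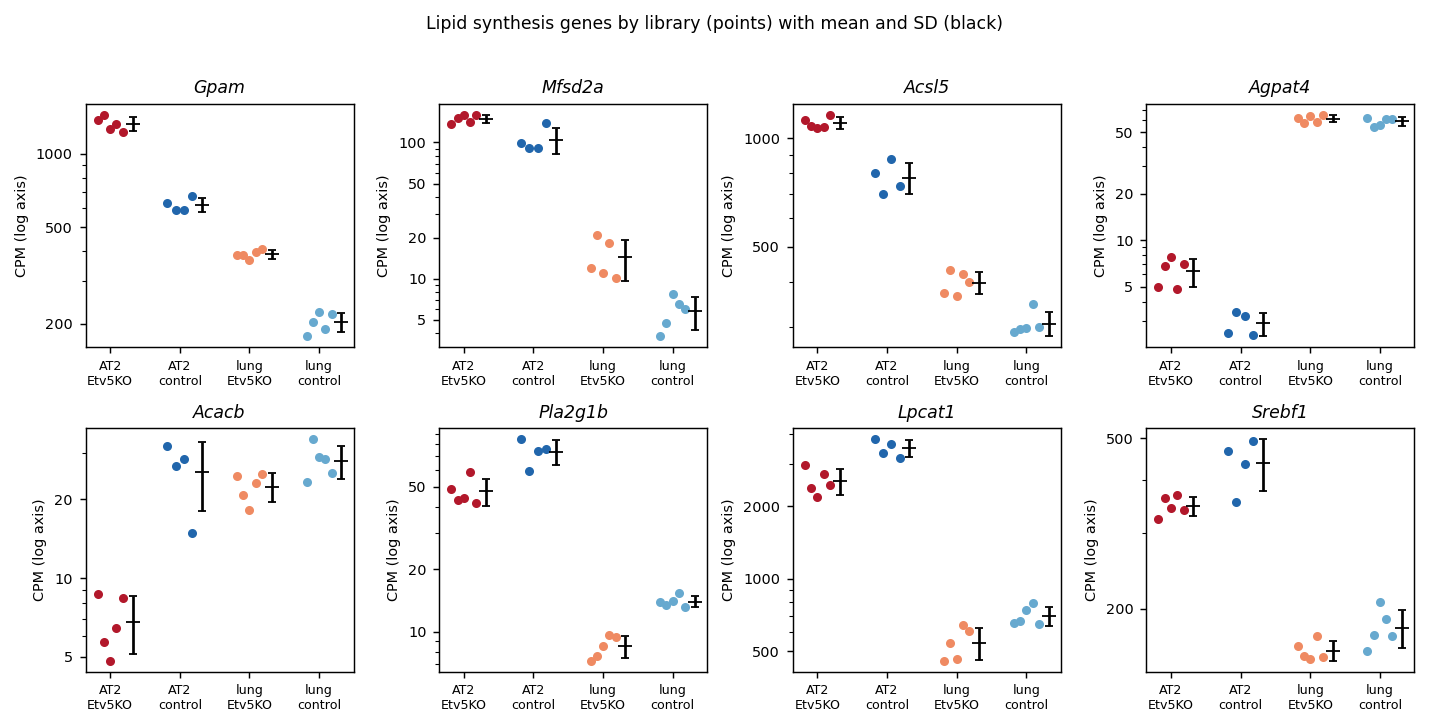
The levels of 8 of the genes in each library, in CPM on a log axis, with Etv5KO left of control for AT2 cells and then for lung, and with the mean and SD of each group in black. CPM was scaled within each tissue, so heights are to be compared between genotypes of a tissue. Gpam is higher in Etv5KO with no overlap in both tissues, Pla2g1b lower, and Agpat4 and Acacb are apart in AT2 cells and overlap in lung.

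The genotype effect itself differed between AT2 cells and lung for 3 of the 47 genes. A fit of all 19 libraries tested the effect in AT2 cells minus that in lung, and 1.59% of all genes tested passed (0.791% with a higher and 0.802% with a lower effect in AT2 cells). Acacb gave −1.60 (SE 0.26, adjusted p = 0.00166), and in lung it had 24.5, 20.8, 18.2, 23.1 and 24.9 CPM in Etv5KO and 23.3, 33.8, 29.0, 28.5 and 25.2 CPM in control, overlapping at a log2 fold change of −0.33. Agpat4 gave 1.04 (SE 0.17, adjusted p = 0.00185), and its lung values, given above, had a log2 fold change of 0.06. Dgat2 gave −1.07 (SE 0.26, adjusted p = 0.0426), with 8.33 to 15.1 CPM in Etv5KO and 9.48 to 12.3 CPM in control lung, but it stayed past the threshold in only 7 of 25 alternative settings. Without Lung_control 1, 5 members passed, and without AT2_control 2, 2. For Gpam, Mfsd2a and Pla2g1b, which passed in both tissues, the difference was 0.16 (interval −0.05 to 0.38), −0.81 (interval −1.38 to −0.24) and 0.07 (interval −0.26 to 0.39), with adjusted p of 0.688, 0.205 and 0.959. For Lpcat1 and Acsl5 it was −0.10 (interval −0.43 to 0.23) and 0.12 (interval −0.11 to 0.34).

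The bases upstream of the members that passed in both tissues are shown because Etv5 belongs to the ETS family, whose factors bind a GGAA core. Each run holds the 250 bases before a RefSeq transcription start on GRCm38.p6, read 5′ to 3′ in the direction of the gene. Letters are in lower case, with any match to the longer ETS motif CCGGAAG in capitals. GGAA cores outside this motif were not searched and stay in lower case. Such cores occur in every window shown, those of Gpam included, when both strands are read (TTCC on the strand printed). Gpam has 2 such starts. This build is not the mm9 of the deposited counts, so the windows are placed by gene name alone.
Mfsd2a, chr4:122961189-122961438, minus strand: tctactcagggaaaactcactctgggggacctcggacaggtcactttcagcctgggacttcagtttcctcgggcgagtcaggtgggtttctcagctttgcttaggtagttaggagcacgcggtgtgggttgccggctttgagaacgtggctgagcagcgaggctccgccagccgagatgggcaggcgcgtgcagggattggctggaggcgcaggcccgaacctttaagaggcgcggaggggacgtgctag
Pla2g1b, chr5:115465892-115466141, plus strand: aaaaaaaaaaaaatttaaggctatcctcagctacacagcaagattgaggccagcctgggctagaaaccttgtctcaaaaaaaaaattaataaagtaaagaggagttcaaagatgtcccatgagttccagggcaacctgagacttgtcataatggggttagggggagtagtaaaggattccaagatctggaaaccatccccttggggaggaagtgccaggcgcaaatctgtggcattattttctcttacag
Gpam, first start, chr19:55127239-55127488, minus strand: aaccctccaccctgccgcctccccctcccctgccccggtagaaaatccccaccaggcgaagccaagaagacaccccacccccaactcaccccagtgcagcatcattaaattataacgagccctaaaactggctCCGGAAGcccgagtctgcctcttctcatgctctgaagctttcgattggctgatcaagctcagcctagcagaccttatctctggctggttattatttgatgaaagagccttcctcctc
Gpam, second start, chr19:55099478-55099727, minus strand: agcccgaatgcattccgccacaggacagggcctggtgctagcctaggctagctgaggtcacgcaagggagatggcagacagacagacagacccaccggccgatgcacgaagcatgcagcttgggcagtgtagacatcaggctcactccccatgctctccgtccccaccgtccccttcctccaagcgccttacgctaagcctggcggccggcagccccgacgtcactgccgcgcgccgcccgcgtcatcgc
The motif searched was CCGGAAG, on both strands, and it begins 117 bases before the first start of Gpam. Of all 32851 windows of this length, 6.91% held it. Windows were found for 40 of the 47 genes, and 3 of the 40 held the motif (7.5%, against 7.83% of all genes with a window): Acss2, Gpam and Pcyt1a. A sterol response element, TCACNCCAC, was in 1.05% of all windows and in those of Acsl1, Mlxipl and Pcyt1a (7.5% of members with a window, against 1.22% of all genes with one). The E-box CACGTG was in 6.02% of all windows and in those of Lpin2 and Mlxipl (5% of members, against 6.86% of all genes). The C/EBP motif TTGCNNAA was in 9.56% and in those of Agpat3, Cept1, Etnk1 and Lpin2 (10% of members, against 10.8% of all genes). A match is a description of letters only, and the absence of one says no more than that these letters are not in this window.

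Several reactions of the route are served by more than 1 of the 47 genes, and the make-up of these groups, named for the reaction and not for descent, was compared per gene length, with no test. Acacb held 5.55% ± 1.14 of the summed RPKM of the acetyl-CoA carboxylases in Etv5KO AT2 cells, against 17.4% ± 5.03 in control AT2 cells (mean and SD, n = 5 and 4). In lung its share was 39.2% ± 3.12 in Etv5KO and 43.1% ± 5.38 in control. Acsl5 held 64.5% ± 1.35 of the ACSL sum in Etv5KO and 53.3% ± 2.71 in control AT2 cells, and 65.8% ± 1.11 in Etv5KO and 58.1% ± 1.29 in control lung, with no overlap of libraries in either tissue. The balance was mainly Acsl4, at 32.8% ± 1.34 in Etv5KO and 43.9% ± 2.81 in control AT2 cells, and 24.3% ± 1.40 in Etv5KO and 29.9% ± 0.984 in control lung. Dgat2 held 9.99% ± 2.40 of the DGAT sum in Etv5KO and 17.3% ± 2.66 in control AT2 cells. Its share in lung was 43.9% ± 3.98 in Etv5KO and 40.4% ± 2.60 in control. Lpcat1 made up most of the LPCAT sum, 93.2 to 94.8% in Etv5KO and 95.3 to 95.7% in control AT2 cells. Cds1 was the main CDP-diacylglycerol synthase in AT2 cells and Cds2 in lung: Cds2 held 29.8 to 34.1% in Etv5KO and 25.5 to 30.6% in control AT2 cells, while in lung it held 70.1 to 76.7% in Etv5KO and 73.5 to 75.5% in control. Agpat4 stayed a minor form in AT2 cells even where it rose, at 1.69 to 2.78% of the AGPAT sum in Etv5KO and 0.938 to 1.59% in control, while in lung it held 24.2 to 26.9% and 24.8 to 26.2% in Etv5KO and control. Scd1 held 90.1 to 93.2% of the stearoyl-CoA desaturase sum in Etv5KO and 91.1 to 93.1% in control AT2 cells.

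**Figure D5:**
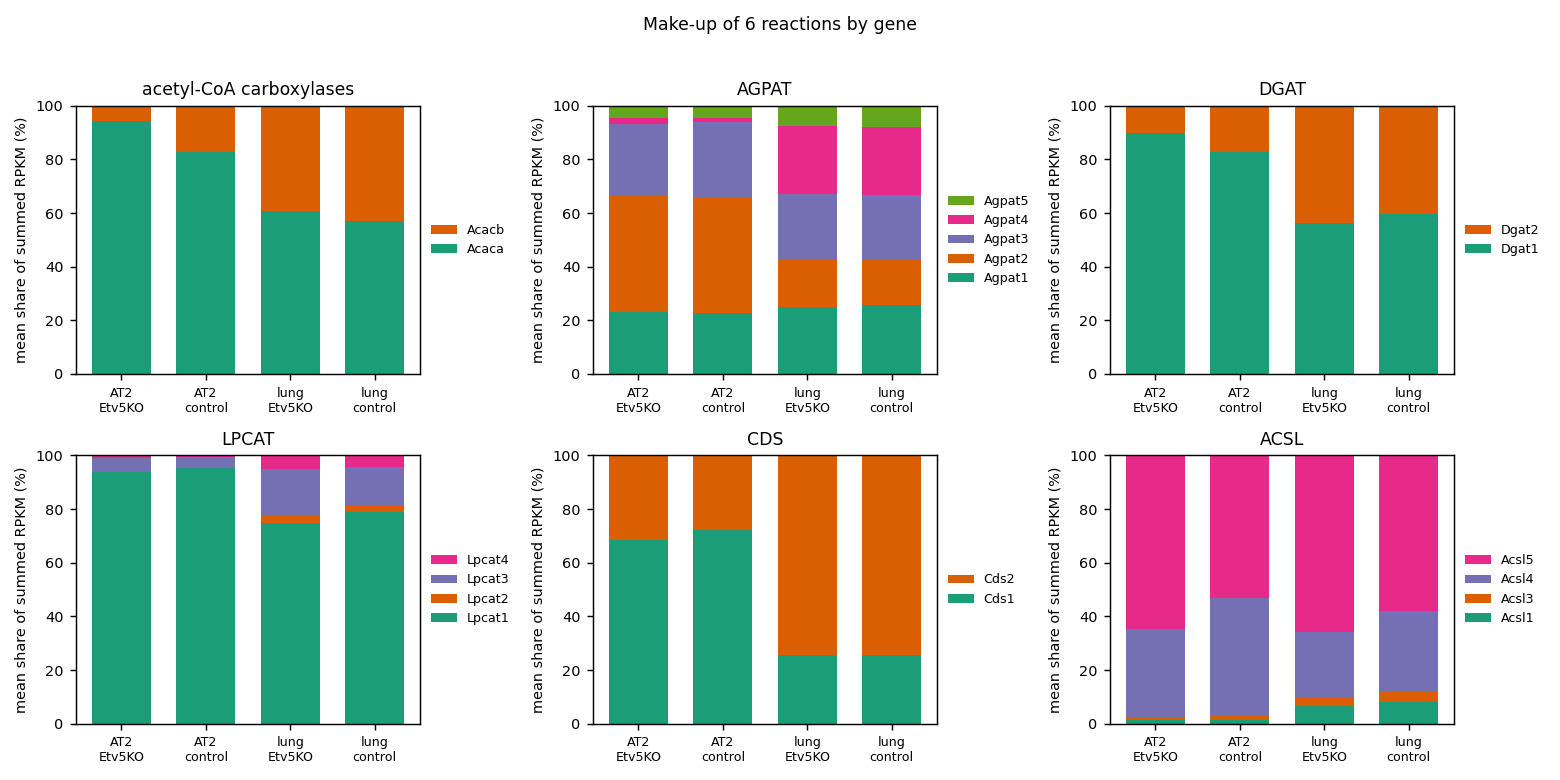
Mean share of each gene in the summed RPKM of the genes for its reaction (vertical axis, %), for 6 reactions in Etv5KO and control AT2 cells and in Etv5KO and control lung. Acacb is a thinner band in Etv5KO than in control AT2 cells, Acsl5 a thicker one in both tissues, and the CDS and AGPAT groups differ between AT2 cells and lung.

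Genes around the route were counted on 4 further lists, chosen by function. In AT2 cells 9.52% of the genes tested passed among regulators, 12.5% among other enzymes, 16.7% for uptake, elongation and export and 25.0% for lipid droplets and lipolysis, where 9.87% of all genes tested passed. The shares of the first lists, regulators and other enzymes, are near that of all genes. Of 21 regulators of lipid synthesis, none rose and 2 fell in Etv5KO AT2 cells: Cebpa, a factor of AT2 maturation and lipogenesis (log2 fold change −0.78, SE 0.15, adjusted p = 0.00538), and Ppargc1a, a coactivator of oxidative metabolism (log2 fold change −0.47, SE 0.12, adjusted p = 0.0283). The partners of Srebf1 did not pass, with log2 fold changes of 0.10 for Srebf2, 0.14 for Scap and 0.00 for Insig1. Of 24 tested of 28 other glycerolipid and phospholipid enzymes, 2 rose and 1 fell. Mboat1, a lysophospholipid acyltransferase, had 15.9, 17.98, 10.5, 13.0 and 14.9 CPM in Etv5KO and 6.55, 7.46, 6.51 and 5.74 CPM in control AT2 cells (log2 fold change 1.13, SE 0.15, adjusted p = 0.000759). Plpp2, a lipid phosphate phosphatase, rose (0.31, adjusted p = 0.0302) and Gk, glycerol kinase, fell (−0.51, adjusted p = 0.00237).

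For uptake, elongation and export, 24 of 32 genes could be tested, and 1 rose and 3 fell. Slc44a2, a choline transporter-like protein, had 447, 412, 445, 420.3 and 435 CPM in Etv5KO AT2 cells, against 299, 294, 287 and 281 CPM in control AT2 cells (log2 fold change 0.57, SE 0.06, adjusted p = 0.000124). The elongase genes Elovl1 and Elovl7 fell, at log2 fold changes of −2.12 and −0.56 (adjusted p = 1.27e-05 and 0.000865), as did Slc27a2, a very long-chain acyl-CoA synthetase (−1.57, adjusted p = 0.00141). Of 16 tested of 18 lipid droplet and lipolysis genes, 4 fell and none rose. These were G0s2, the inhibitor of adipose triglyceride lipase (−1.27, adjusted p = 0.0025), Abhd5, the coactivator of the same lipase (−0.54, adjusted p = 0.00351), Plin3, a droplet coat protein (−0.32, adjusted p = 0.0257), and Pla2g4a, cytosolic phospholipase A2 (−0.81, adjusted p = 0.0225). An inhibitor and a coactivator of the same enzyme are both among them. In lung, 2 genes of these 4 lists passed, where 0.415% of all genes tested did, and both fell: Elovl1 (−1.21, adjusted p = 0.00036) and Cebpa (−0.54, adjusted p = 0.0305). The log2 fold change of Etv5KO over control differed between AT2 cells and lung for Mboat1 (0.99), Slc44a2 (0.46), Elovl1 (−0.92) and G0s2 (−1.44), at adjusted p of at most 0.0189. The mix of cells in lung limits this comparison too. In control mice, whole lung exceeded the sorted cells for Mboat1 and Slc44a2, with no overlap of libraries. What other cell types, such as those whose markers are given above, add to the rises of Mboat1 and Slc44a2 was not tested.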

How the data were processed

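Polyadenylated RNA of 19 mouse libraries was sequenced. Per the file headers, the deposited counts are reads that the authors aligned uniquely to each gene model, which lowers genes with near-identical copies, and the RPKM column is the authors' level per length and sequencing depth, divided by a size factor per library. Per the submitters' processing notes, alignment was with GSNAP to mm9, with no version named. Annotation release, counting tool and strand setting: not given in the sources used here. Names for Entrez IDs come from RefSeq genes on GRCm38.p6 (31049 of 36528 IDs, holding 98.7% of counts). Promoter windows come from RefSeq on the same assembly.

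Counts were fitted in edgeR 4.0.16 (R 4.3.3) after filterByExpr (minimum count 10, minimum total 15) and TMM scaling. The two-sided quasi-likelihood F test was adjusted by Benjamini-Hochberg over all genes tested, with a threshold of 0.05. AT2 cells, lung and the 2 control groups were fitted separately, and the difference of genotype effects over all 19 libraries. Each SE is the log2 fold change over the root of F, and 95% intervals follow from it. Alternatives were other scalings and filters, DESeq2 1.42.0, voom in limma 3.58.1, and leaving out each library. The fits were also run on simulated counts, whose outcome is not given here, and no result above rests on that run. Replicate pairs differed by a chi-square of 7.30 to 56.9 per degree of freedom, so no pair came within sampling noise.

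The members and all lists were chosen with earlier results of these data known. Values in each library are given for members past the threshold in a genotype comparison (up to 20) and for Fasn, Scd1, Srebf1, Gpam, Pcyt1a, Chpt1, Lpcat1, Mfsd2a, Pcyt1b and Pla2g1b whatever their result. Of each further list, up to 4 genes past the threshold are named. Total counts set the precision of low genes, and Pcyt1b was too low in AT2 cells for a test.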

Additional observations from a re-analysis of the deposited data

Results flagged for a closer look

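Single libraries stood apart from their group for 12 genes, 13 times among 186 groups checked, where chance alone gives about 1 in 20. AT2_control 2 did so 5 times. It was low for Scd1 (12513 CPM, nearest other control 20145), Acss1 (165 CPM, nearest 182), Chpt1 (86.9 CPM, nearest 92.5) and Acsl3 (21.9 CPM, nearest 28.6), and high for Mlxipl (15.1 CPM, nearest 9.57). It is also the control with the lowest summed AT2 markers (127117 RPKM). Among the other AT2 libraries, Mfsd2a was high in AT2_control 4 (139 CPM, nearest 98.2), and without that library its log2 fold change in AT2 cells was 0.68, against 0.51 with it. Pcyt2 was low in AT2_Etv5KO 2 (95.9 CPM, nearest 113).

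In lung, Scd1 was low in Lung_control 1 (1727 CPM, nearest other control 2996), as was Etnk1 (179 CPM, nearest 229). Acsl5 was high in Lung_control 4 (347 CPM, nearest 299), and without that library Acsl5 passed the threshold in lung. Scd2 was high in Lung_Etv5KO 5 (1188 CPM, nearest 932), Lpin2 high in Lung_Etv5KO 1 (279 CPM, nearest 198) and Cept1 low in Lung_Etv5KO 3 (69.6 CPM, nearest 76.0).

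The log2 fold change by genotype in AT2 cells differed from that in lung, by the interaction term in edgeR, for Acacb (−1.60 on the log2 scale, adjusted p = 0.00166), Agpat4 (1.04, adjusted p = 0.00185) and Dgat2 (−1.07, adjusted p = 0.0426). Lung libraries hold every cell type, which limits this comparison, and the part of that mix was not tested.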

How the results depend on the processing

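The 16 members past the threshold in AT2 cells were 14 to 18 under other scalings, filters and tests, and 8 to 15 when 1 library was left out, with 8 without AT2_control 1 or AT2_control 3. In lung the count was 2 to 4, between control AT2 cells and control lung 38 to 43, and for the difference of effects 2 to 5, with 5 without Lung_control 1. No named log2 fold change that passed turned its direction. In AT2 cells Acacb, Acss2, Fads3, Gpam, Agpat4, Pla2g1b, Cds2 and Acsl5 stayed past the threshold in all 16 alternatives. Over all genes in lung, 71 passed in edgeR, 192 in DESeq2, 122 in the fit of all 19 libraries and 44 without Lung_control 4, and for the difference of effects 282 in edgeR and 455 in DESeq2; the cause was not tested. Shares among genes of a reaction taken from CPM, which ignores gene length, were 1.59% for Agpat4, 51.3% for Cds2, 54.0% for Acsl5 and 96.05% for Lpcat1 in Etv5KO AT2 cells. In control AT2 cells they were 0.792% for Agpat4, 13.9% for Dgat2, 46.7% for Cds2, 42.3% for Acsl5, 97.1% for Lpcat1 and 91.2% for Scd1. Shares without each AT2 library in turn, added after the data were seen, were 64.1 to 65.0% for Acsl5 in Etv5KO and 52.3 to 54.4% in control. No paired analysis was possible because the labels give no replicate numbers and tie no library to a mouse.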
